A study of Mus musculus with 4 samples.

Results

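The cytoplasmic actins and 6 of their binding partners were described in single mouse embryonic stem cells (mESC). The set comprised Actb, Actg1, Vcl, Flna, Tln1, Zyx, Cfl1 and Pfn1, picked by symbol, and all 8 were found among the 32285 genes of the deposited matrix. The cells were E14tg2a.4, a male mESC line, and a line made from it that carries a gene-trap truncation of 1 Srrm2 allele (Srrm2 hKO, heterozygous knockout, gene-trap line CG0630). Both were grown with LIF on gelatin, and the labels give 24 h or 72 h in serum-free medium before collection without assigning a time to a sample, while the study's methods name another single time for the single-cell cultures. The labels list 2 WT and 2 Srrm2 hKO samples, and the hKO cells are 1 trapped line rather than several independent clones. Transcripts were counted from their 3′ ends as unique molecular identifiers (UMIs) in droplets.

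The barcodes carry a library number from 1 to 4, and nothing in the labels or files used here ties a number to WT or Srrm2 hKO. Values are therefore given for each library by its number, with no comparison of genotypes, no test and no p-value. Kept cells numbered 7464 to 8514 in a library, with 166839268 to 200180473 UMIs and a median of 18378 to 21897.5 UMIs per cell. Of 31883 barcode sequences among the kept cells, 105 occurred in 2 or more libraries. The targeted gene Srrm2 was counted in every library, and its levels for libraries 1 to 4 were 387, 533, 238 and 356 CPM, where CPM is UMIs of a gene per 1000000 UMIs. The pluripotency factors Pou5f1, Sox2 and Nanog were detected in all 4 libraries and summed to 1420, 1331, 1073 and 1135 CPM in libraries 1 to 4. In the same order 8 fibroblast markers summed to 2.38, 5.64, 12.3 and 7.23 CPM.

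Actin exists as a pool of monomers and as filaments. Profilin, encoded by Pfn1, hands monomers to growing filament ends, and cofilin, encoded by Cfl1, severs and disassembles older filaments. Talin (Tln1) ties integrins to filaments, vinculin (Vcl) reinforces that tie under load, zyxin (Zyx) gathers at adhesions and at strained filaments, and filamin A (Flna) crosslinks filaments into networks. Actb and Actg1 encode the β and γ cytoplasmic actins, proteins that differ in a handful of residues near their start. Serum response factor (SRF) together with its actin-sensing cofactors binds a DNA element known as the CArG box.

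In the GRCm38 annotation (GENCODE), Actb lies at chr5:142903115-142906754 on the minus strand and Actg1 at chr11:120345690-120348542 on the minus strand. Pfn1, also on chromosome 11, lies at chr11:70651850-70654644 on the minus strand, and Cfl1 at chr19:5490455-5495201 on the plus strand. Vcl is the longest of the 8 genes, at chr14:20929398-21033676 on the plus strand. Flna is X-linked, at chrX:74223461-74249820 on the minus strand. Tln1 lies at chr4:43531519-43562691 on the minus strand and Zyx at chr6:42349630-42360213 on the plus strand.

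Promoters running from 250 bases before to 50 bases after the start annotated by RefSeq were taken from its GRCm38.p6 table, which held 7 of the 8 genes. Those of Actg1 and Vcl are shown because each holds a CArG box. Those of Zyx and Cfl1 are shown because these genes differed most and least between the keratin-high and naive-high cells described below. All are printed 5′ to 3′ on the gene's own strand, with the CArG box in capitals.
Actg1, chr11:120348446-120348745, minus strand: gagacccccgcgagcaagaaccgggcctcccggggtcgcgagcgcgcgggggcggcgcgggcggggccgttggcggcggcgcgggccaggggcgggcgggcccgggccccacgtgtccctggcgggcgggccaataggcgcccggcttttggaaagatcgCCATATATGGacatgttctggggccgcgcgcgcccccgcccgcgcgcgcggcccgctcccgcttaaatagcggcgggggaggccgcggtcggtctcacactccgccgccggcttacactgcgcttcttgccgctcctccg
Vcl, chr14:20929148-20929447, plus strand: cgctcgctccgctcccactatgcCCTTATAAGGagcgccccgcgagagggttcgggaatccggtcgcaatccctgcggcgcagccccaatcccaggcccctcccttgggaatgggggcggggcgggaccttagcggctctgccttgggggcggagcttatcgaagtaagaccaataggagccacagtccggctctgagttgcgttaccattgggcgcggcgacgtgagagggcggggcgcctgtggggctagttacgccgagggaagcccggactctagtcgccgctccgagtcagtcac
Zyx, chr6:42349578-42349877, plus strand: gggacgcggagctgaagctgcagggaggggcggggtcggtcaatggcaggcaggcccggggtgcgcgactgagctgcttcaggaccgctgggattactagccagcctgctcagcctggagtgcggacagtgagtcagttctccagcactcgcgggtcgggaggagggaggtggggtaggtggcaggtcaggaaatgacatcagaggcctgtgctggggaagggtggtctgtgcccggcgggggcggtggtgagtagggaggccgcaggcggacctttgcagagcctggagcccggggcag
Cfl1, chr19:5490205-5490504, plus strand: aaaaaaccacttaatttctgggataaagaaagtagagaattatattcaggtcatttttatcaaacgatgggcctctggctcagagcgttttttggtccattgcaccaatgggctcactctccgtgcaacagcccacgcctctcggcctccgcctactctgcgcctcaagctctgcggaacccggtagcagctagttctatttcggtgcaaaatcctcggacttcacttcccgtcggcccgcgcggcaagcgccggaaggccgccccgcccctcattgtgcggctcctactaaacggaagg
The CArG box was searched as a pattern that reads the same on both strands. The Actg1 box began 90 bases before the start site and the Vcl box 227 bases before it. The promoters of Flna, Tln1, Zyx, Cfl1 and Pfn1 held no match in this window. The windows follow the start sites of RefSeq, which can differ from the gene ends of GENCODE given earlier. That of Flna, chrX:74246485-74246784, lies inside the gene as GENCODE bounds it. Those of Actg1, Tln1, Zyx and, by a few bases, Pfn1 are shifted relative to the GENCODE start. Among all 32851 promoter sequences of the same length, 1.63% held a match, against 2 of the 7 printed or searched here. A match in these letters is a description of the sequence and not a measured binding site.

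Actb was the most abundant of the 8 transcripts in every library, and Zyx the scarcest. Actb levels for libraries 1 to 4 were 2509, 2965, 2888 and 3135 CPM, which placed it 64th to 79th among all genes by UMIs. Its highest level was 1.25 times its lowest (95% interval 1.24 to 1.25), the smallest spread between libraries of the 8 genes. Intervals are exact Poisson or binomial intervals and cover counting error only.

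Actg1 varied more between the libraries. Its levels were 761 and 726 CPM in the first pair of libraries (1 and 2) and 1780 and 1511 CPM in the second (3 and 4). Libraries 3 and 4 thus stood apart from libraries 1 and 2, and the highest level was 2.45 times the lowest (2.44 to 2.47). Zyx showed the same split with a wider range. Its levels were 7.03 and 12.5 CPM in libraries 1 and 2 and 36.9 and 31.9 CPM in libraries 3 and 4, a highest-to-lowest ratio of 5.25 (4.93 to 5.59).

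Library 1 had the lowest level of every gene of the set but Actg1. For Vcl the levels, always in the order of libraries 1 to 4, were 26.9, 44.5, 53.8 and 61.8 CPM, a ratio of 2.29 (2.22 to 2.38). Flna was at 92.6, 136, 139 and 166 CPM, a ratio of 1.80 (1.76 to 1.83). Tln1 was highest in library 3, at 61.4, 65.1, 88.5 and 69.7 CPM, with a ratio of 1.44 (1.41 to 1.48). The regulators of filament turnover moved least after Actb. Cfl1 was at 784, 1044, 934 and 1072 CPM, a ratio of 1.37 (1.36 to 1.38). Pfn1 was at 916, 941, 1239 and 1116 CPM, a ratio of 1.35 (1.34 to 1.36). The place of library 1 depended on scaling by UMI totals for 2 genes, Tln1 and Pfn1, which were lowest in library 2 under median-of-ratios or TMM factors. Vcl, Flna and Zyx each ranked far below the actins, between 922nd and 8050th among all genes.

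**Figure D1:**
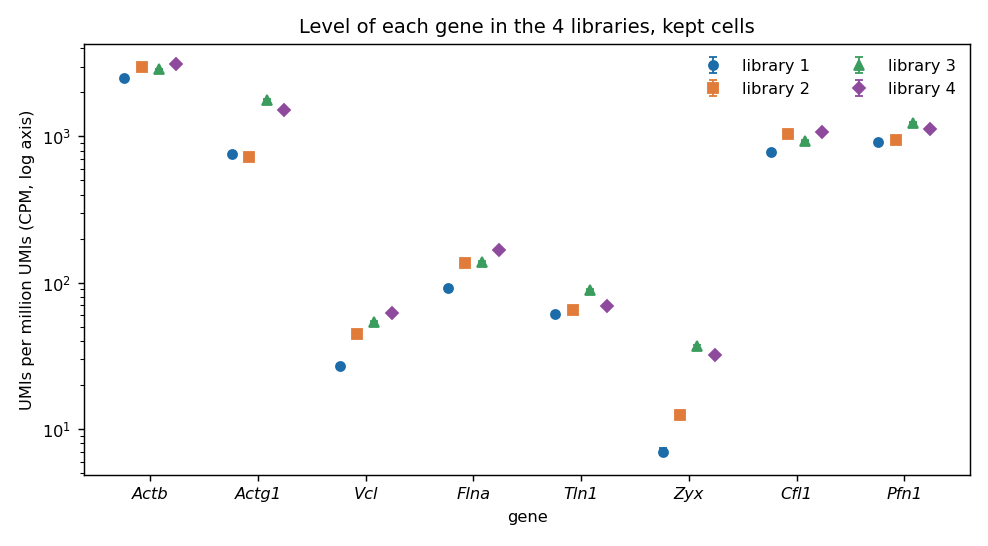
Level of the 8 genes in each library in UMIs per 1000000 UMIs (log axis), with points for libraries 1 to 4 and bars for exact 95% Poisson intervals, most of them smaller than the point. Actb sits between 2509 and 3135 CPM in all libraries, whereas Actg1 and Zyx are higher in libraries 3 and 4 than in libraries 1 and 2.

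A spread of at least 1.5-fold between the highest and the lowest library was counted for 4 of the 8 genes, namely Actg1, Vcl, Flna and Zyx. Of all 11099 genes with at least 200 counts in every library, 41.0% reached this spread, so the share among the 8 genes was close to that of all genes. The median spread was 1.62-fold for the 8 genes and 1.42-fold over all genes tested. Differences in culture, genotype and cell composition between libraries cannot be told apart here.

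Composition was set aside in part by comparing the libraries within naive-high cells alone, a class defined in the next paragraph. Actg1 then had levels of 640, 542, 1041 and 801 CPM, a ratio of 1.92 (1.90 to 1.94) in place of 2.45. Zyx was at 3.57, 6.24, 8.83 and 11.9 CPM, a ratio of 3.33 (2.98 to 3.71), with library 4 now above library 3. Vcl (ratio 2.08) and Flna (1.69) also kept a spread above 1.5-fold, while Tln1 fell to 1.14 and Pfn1 to 1.18. Actb stayed at 1.25 and Cfl1 at 1.34. The same 4 genes passed 1.5-fold within naive-high cells, where 32.3% of the 10014 genes tested did so and the median spread was 1.34-fold.

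Cells were sorted into marker classes from genes outside the set, after every cell had been thinned at random to 5000 UMIs. Keratin-high cells had 2 or more UMIs of Krt8 plus Krt18, the pair of simple-epithelium keratins. Naive-high cells had fewer keratin UMIs and 5 or more UMIs of a panel of 10 naive pluripotency genes such as Zfp42, Klf4 and Nr5a2. Naive-low formative-high cells had fewer keratin UMIs, at most 2 naive UMIs and 3 or more UMIs of a formative panel that includes Pou3f1 and Sox3, genes of the stage that follows naive pluripotency. These are ranges of a score, not cell types.

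Keratin-high cells numbered 104, 111, 767 and 575 in libraries 1 to 4, that is 1.28%, 1.30%, 9.72% and 7.70% of kept cells. Naive-high cells numbered 7311, 6391, 5480 and 3158, and naive-low formative-high cells 164, 1124, 526 and 2603. Of the keratin-high cells, 40, 69, 113 and 271 lay exactly at the threshold of 2 UMIs, and 283, 567, 708 and 1125 cells lay just below it with 1 UMI. In libraries 2 and 4 the keratin-high class therefore held many cells with few keratin UMIs (a median of 2 and 3, against 4 in library 1 and 10 in library 3).

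Actg1, Vcl, Tln1 and Zyx were at least 1.5-fold higher in keratin-high than in naive-high cells of every library. Actg1 levels in keratin-high cells were 3770, 2812, 5072 and 3559 CPM, against 640, 542, 1041 and 801 CPM in naive-high cells. The ratios were 5.89 (5.78 to 6.01), 5.19 (5.07 to 5.32), 4.87 (4.83 to 4.91) and 4.44 (4.39 to 4.49). Zyx had the widest ratios. Keratin-high cells held 114, 73.3, 172 and 88.9 CPM of it, and naive-high cells 3.57, 6.24, 8.83 and 11.9 CPM. These are ratios of 32.0 (27.9 to 36.8), 11.7 (9.99 to 13.7), 19.5 (18.1 to 20.9) and 7.48 (6.86 to 8.17). With Leiden clusters in place of the marker classes the ratio in library 2 was 23.

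The adhesion proteins vinculin and talin followed with smaller ratios that depended on the library. Vcl was 5.59, 1.94, 5.16 and 2.45 times higher in keratin-high cells of libraries 1 to 4, reaching 133, 84.2, 167 and 121 CPM. Tln1 was 2.79, 1.69, 3.12 and 1.94 times higher, reaching 164, 110, 209 and 124 CPM. For both genes libraries 1 and 3 gave the larger ratios. Their keratin-high cells also had the higher median of keratin UMIs, 4 and 10, against 2 and 3 in libraries 2 and 4. The part of this make-up in the ratios was not tested. With Leiden clusters in place of the marker classes the ratios in library 2 were 2.95 for Vcl and 2.63 for Tln1, and that of Tln1 in library 4 was 3.09.

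Actb, Flna and Pfn1 were higher in keratin-high cells of every library without reaching 1.5-fold in all. Actb levels were 4700, 3781, 5425 and 4243 CPM there and 2463, 3012, 2464 and 3070 CPM in naive-high cells, ratios of 1.91, 1.26, 2.20 and 1.38. Flna ratios were 2.52, 1.47, 2.94 and 1.73, and library 2 alone fell short of 1.5. Pfn1 ratios were 1.85, 1.38, 1.83 and 1.495, with libraries 2 and 4 short of 1.5. Cfl1 changed least, with ratios of 1.19, 1.08, 1.23 and 1.15.

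Thus 4 of the 8 genes were called higher and 0 were called lower. Among the 10387 genes tested, 11.3% were at least 1.5-fold higher in every library and 6.45% at least 1.5-fold lower. The median ratio of the 8 genes was 2.65, 1.58, 3.03 and 1.83 in libraries 1 to 4, beside 1.06, 1.05, 1.03 and 1.05 over all genes tested. With the keratin class begun at 4 UMIs instead, library 2 had too few cells, and 7 of the 8 genes, all but Cfl1, were called higher in the other 3 libraries, where 15.4% of all genes tested were.

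Other properties moved with the keratin-high class. Its cells had a median of 25591, 22095, 24425 and 22076 UMIs, against 18216, 21996, 18719.5 and 21616.5 in naive-high cells, and 25% and 22.6% of them in libraries 1 and 3 had over 2 times their library's median UMI count. Without all cells of such high counts the same 4 genes were called. Of 6 smooth muscle markers, all were detected in keratin-high cells of the pooled libraries, and their sum was 801 to 3064 CPM there against 16.9 to 37.7 CPM in naive-high cells, mostly from Tagln and Acta2. Tagln, Acta2 and Cnn1 of this list are also actin genes or actin-binding genes of the lists described later. The 6 trophectoderm markers summed to 22.5 to 68.8 CPM against 3.20 to 4.72 CPM, the 8 fibroblast markers to 18.8 to 66.8 CPM against 1.55 to 4.43 CPM, and the 6 primitive endoderm markers to 0.659 to 8.21 CPM against 0.636 to 1.03 CPM. The primitive endoderm sum of keratin-high cells in library 1, 0.659 CPM, rests on fewer than 3 UMIs, so no direction was read from it. Gata4, Sox17, Foxa2, Pdgfra, Cdx2, Elf5, Pdgfrb and Lum had no counts in keratin-high cells of library 1. The same was true of Sox17, Sox7, Elf5, Pdgfrb, Myh11, Lum and Dcn in library 2 and of Elf5 and Lum in library 4. The median mitochondrial percent was lower in keratin-high cells of every library, at 3.81, 3.60, 3.39 and 3.09 against 5.46, 4.18, 4.72 and 3.78. Their part in the actin result was not tested.

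**Figure D2:**
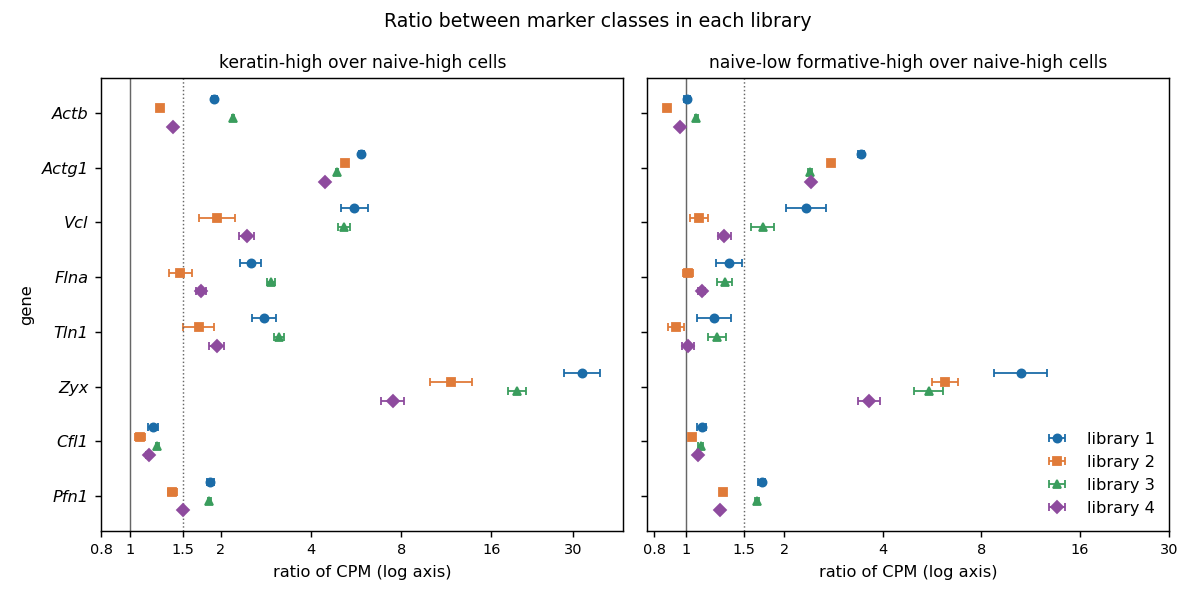
Ratio of CPM between marker classes for each gene (log axis), keratin-high over naive-high cells on the left and naive-low formative-high over naive-high cells on the right, with a point for each library, exact 95% intervals, a solid line at 1 and a dotted line at 1.5. Actg1 and Zyx lie right of the dotted line in every library of both panels, whereas Actb lies near 1 on the right and between 1.26 and 2.20 on the left.

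Naive-low formative-high cells differed from naive-high cells in fewer genes of the set. Actg1 and Zyx were the 2 of 8 that were called higher, and 0 were called lower. Of the 10699 genes tested in this comparison, 8.50% were called higher and 6.59% lower. Actg1 was at 2189, 1508, 2493 and 1934 CPM in naive-low formative-high cells of libraries 1 to 4, ratios of 3.42, 2.78, 2.395 and 2.41. Zyx was at 37.7, 38.6, 48.8 and 43.1 CPM, ratios of 10.6, 6.18, 5.53 and 3.63. The Zyx levels of this class in every library lay above the 11.9 CPM of library 4, the highest level in naive-high cells. The keratin pair itself was higher in this class, with ratios of 3.78 to 8.93 for Krt8 and 3.52 to 14.9 for Krt18. The 6 smooth muscle markers summed to 55.6 to 137 CPM there, against 16.9 to 37.7 CPM in naive-high cells. The fibroblast markers summed to 4.92 to 9.27 CPM against 1.55 to 4.43 CPM, and the trophectoderm markers to at least 7.70 CPM in each library against at most 4.72 CPM. Single markers of these lists went both ways. Thy1 (ratios of 2.08 to 4.84) and Eomes (1.91 to 4.37) were higher in every library, and Tfap2a (0.335 to 0.851) was lower in every library. Lum had no counts in this class, nor had Col3a1 in libraries 1, 2 and 4, nor Col1a1 and Acta2 in library 1. The median mitochondrial percent was 3.72, 3.80, 3.71 and 3.36, lower than in naive-high cells of every library, and the median UMI count was higher in libraries 1 and 3 (21978.5 and 21951). Their part in these ratios was not tested.

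Actb was near its naive-high level in these cells. It was at 2479, 2643, 2652 and 2952 CPM, ratios of 1.01 (0.986 to 1.03), 0.877 (0.870 to 0.885), 1.08 (1.06 to 1.09) and 0.962 (0.956 to 0.968), so that it lay on either side of 1. None of the other 5 genes was called. The ratios of Tln1 were 0.933 to 1.24, those of Flna 1.02 to 1.36 and those of Cfl1 1.04 to 1.12. Those of Pfn1 were 1.70, 1.29, 1.64 and 1.27, and those of Vcl 2.34, 1.10, 1.72 and 1.31, in both cases with libraries 1 and 3 above libraries 2 and 4. The median ratio of the 8 genes was 1.53, 1.07, 1.48 and 1.20, beside 1.11, 1.07, 1.09 and 1.06 over all genes tested.

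Marker scores were also read in steps, which avoids a single threshold. Among cells without a keratin UMI, Actg1 in library 3 was at 983 CPM with 10 or more naive UMIs, 1074 CPM with 5 to 9, 1402 CPM with 3 to 4, 2206 CPM with 1 to 2 and 2737 CPM with 0. The same steps gave 640, 631, 792, 1775 and 2053 CPM for library 1. They gave 539, 530, 771, 1254 and 1615 CPM for library 2 and 792, 781, 1291, 1732 and 1908 CPM for library 4. Most of the rise in Actg1 thus lay below 5 naive UMIs in all 4 libraries. Zyx went from 3.44, 4.74, 6.07 and 9.52 CPM at 10 or more naive UMIs to 25.7, 46.3, 64.6 and 39.4 CPM at 0. Actb was lower at 0 than at 10 or more naive UMIs in libraries 1, 2 and 4, though it did not fall at every step. Its levels there were 2413, 3002 and 3059 CPM at 10 or more and 2113, 2538 and 2805 CPM at 0. In library 3 it rose at every step toward 0, from 2418 to 2696 CPM.

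Along the keratin score Actb was higher at the last step in libraries 3 and 4. In library 3 it was at 2491, 2796, 3790, 4554 and 6233 CPM in cells with 0, 1, 2 to 3, 4 to 7 and 8 or more keratin UMIs, and in library 4 at 3018, 3127, 3490, 4347 and 6164 CPM. Actg1 reached 5918 and 5042 CPM in the last step of libraries 3 and 4, and Zyx 201 and 140 CPM. In library 2, where the last step with 50 or more cells was 2 to 3 UMIs, Actb was 1.02 times its level at 0 while Actg1 was 3.09 times. In library 1 only the steps at 0 and 1 UMI held 50 cells, and Actg1 rose from 685 to 1200 CPM between them. Cfl1 gained at most 1.27-fold between the first and last step of any library.

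**Figure D3:**
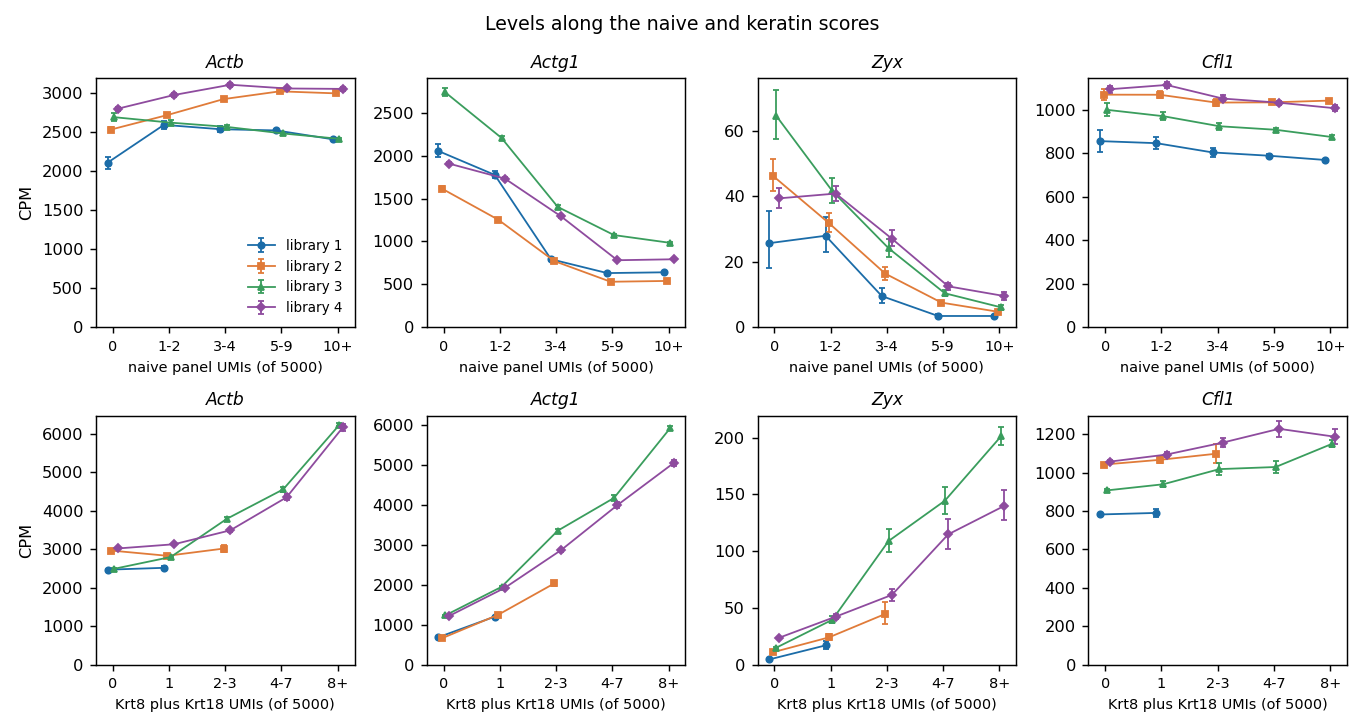
CPM of Actb, Actg1, Zyx and Cfl1 in cells grouped by UMIs of the naive panel (top row, cells without a keratin UMI) or of Krt8 plus Krt18 (bottom row, all kept cells), at 5000 UMIs per cell, with a line for each library and exact 95% Poisson intervals; steps under 50 cells are left out. Actg1 and Zyx fall along the naive score and rise along the keratin score, Actb reaches 6233 CPM in the last keratin step of library 3 but gains 1.02-fold along the shorter keratin lines of libraries 1 and 2, and Cfl1 is nearly flat.

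The balance of the cytoplasmic actins differed accordingly. A 3′ tag counts a transcript once whatever its length, and the coding sequences of the actins are so alike that reads within them can map to several genes, so the shares below concern counted UMIs. Of Actb plus Actg1 UMIs, Actb made up 76.7% (76.6 to 76.8), 80.3% (80.2 to 80.4), 61.9% (61.8 to 62.0) and 67.5% (67.4 to 67.6) in the kept cells of libraries 1 to 4. In naive-high cells the share was 79.4%, 84.8%, 70.3% and 79.3%. In naive-low formative-high cells it was 53.1%, 63.7%, 51.5% and 60.4%, and in keratin-high cells 55.5%, 57.3%, 51.7% and 54.4%.

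In all 4 libraries the share was lower in both of the latter classes than in naive-high cells. Cells in none of the 3 classes lay between, at 70.9%, 77.7%, 58.8% and 68.3%. The sum of both actins set keratin-high cells apart from the other classes. It was 3103, 3553, 3505 and 3871 CPM in naive-high cells, 4668, 4151, 5144 and 4886 CPM in naive-low formative-high cells and 8470, 6594, 10497 and 7802 CPM in keratin-high cells. Naive-low formative-high and keratin-high cells therefore had shares within 3 percentage points of each other in libraries 1 and 3, at different total levels.

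Muscle actins added to this sum in keratin-high cells. Acta1, Acta2, Actc1 and Actg2 together were at 353, 128, 1166 and 177 CPM there, which was 4.00%, 1.90%, 10.0% and 2.22% of all actin UMIs. In naive-high cells they made up 0.00978%, 0.0194%, 0.194% and 0.0604%. Only Acta2, the smooth muscle isoform, had at least 200 counts over both classes together in every library. In libraries 1, 2 and 4 it reached that number only through the keratin-high cells, so its levels are a description. It stood at 231, 115, 884 and 114 CPM in keratin-high cells and at 0.101, 0.477, 5.83 and 1.76 CPM in naive-high cells.

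**Figure D4:**
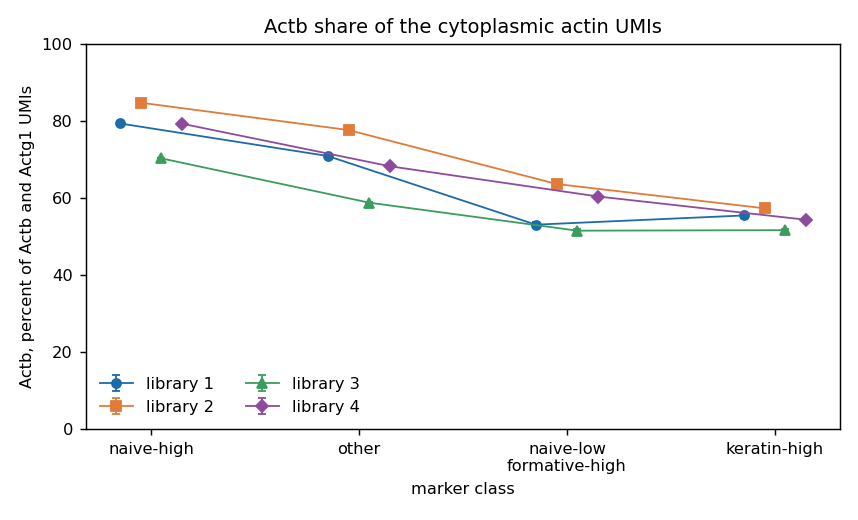
Percent of Actb among Actb plus Actg1 UMIs in the 4 marker classes, with a line for each library and exact 95% binomial intervals that are mostly smaller than the points. The share is highest in naive-high cells, at 70.3% to 84.8%, and between 51.5% and 63.7% in the naive-low formative-high and keratin-high classes.

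Cells also differed from each other within a library. The variance left after removing the counting part, divided by the squared mean, was 0.896, 1.17, 1.07 and 0.869 for Actg1 in libraries 1 to 4, which ranked it 5th, 3rd, 9th and 13th of 1223 genes with a mean of 0.5 or more UMIs at 5000 UMIs. Cfl1 had 0.0390, 0.0503, 0.0617 and 0.0494, close to the median gene of that set at 0.0524, 0.0478, 0.0692 and 0.0572. Actb (0.0677 to 0.276) and Pfn1 (0.0912 to 0.157) lay between. In naive-high cells the median cell held 3, 2, 4 and 3 Actg1 UMIs of 5000 and 12, 15, 12 and 15 Actb UMIs. In keratin-high cells it held 19, 11, 24 and 16 Actg1 UMIs and 22, 15, 26 and 19 Actb UMIs.

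The likeness of genes over cells was measured as Pearson's r of log UMIs at 5000 per cell, taken within each library over 7464 to 8514 cells that share depth and processing, and genes were ordered by their lowest r of the 4 libraries. The 10 genes most like Actb, of 1223 ranked, were Tmsb4x, Tmsb10, Cfl1, Myl6, Dstn, Pfn1, Tpm1, S100a10, Myl12a and Aprt. Tmsb4x and Tmsb10 encode thymosins that hold actin monomers, Dstn a relative of cofilin, Myl6 and Myl12a myosin light chains and Tpm1 a tropomyosin, while Aprt encodes an enzyme of purine salvage. The r with Tmsb4x was 0.228, 0.242, 0.415 and 0.272 in libraries 1 to 4, and the r with Aprt was 0.0816 to 0.124. Without keratin-high cells 6 of the 10 remained among the first 10, with Tmsb4x again first.

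Actg1 was not among the genes like Actb. Its r with Actb was -0.0250, -0.157, 0.255 and 0.0213 in libraries 1 to 4, which placed it 1143rd of 1223. Within naive-high cells r was between -0.160 and -0.0854 and thus below 0 in all libraries. By likeness to Actg1, Odc1, which encodes ornithine decarboxylase, ranked 1st and Mdk, which encodes the growth factor midkine, 2nd. Tpm1 ranked 9th, with r of 0.0812 to 0.519, and Pfn1 16th, with r of 0.0634 to 0.299. The r with Mdk was 0.152, 0.225, 0.373 and 0.334. The Actg1-Zyx pair had 0.153 to 0.380 over all kept cells and 0.0126 to 0.0612 within naive-high cells. Pairs with Vcl, Tln1, Flna or Zyx rest on sparse counts, since these genes averaged under 1 UMI per 5000. Among naive-high cells Actb-Cfl1 (0.160 to 0.206), Actb-Pfn1 (0.139 to 0.174) and Cfl1-Pfn1 (0.123 to 0.181) were the 3 pairs of the 28 with the highest r when ordered by the lowest library.

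**Figure D5:**
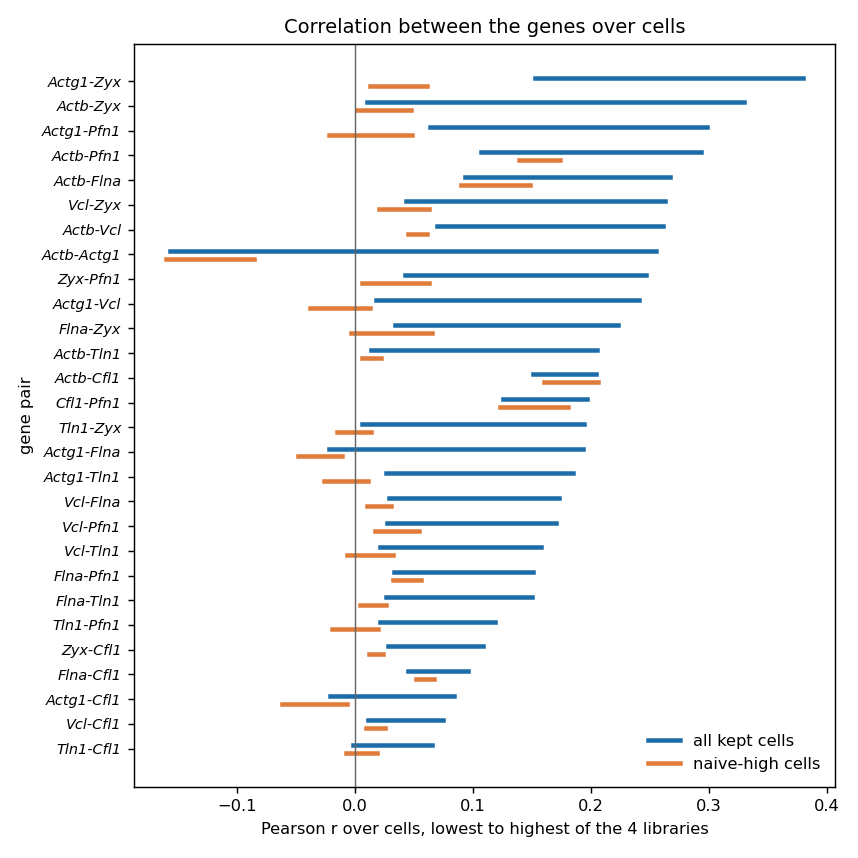
Pearson's r of log UMIs over cells for the 28 pairs of the 8 genes, each bar running from the lowest to the highest of the 4 libraries, in all kept cells and in naive-high cells. The Actb-Actg1 bar spans 0 over all kept cells, from -0.157 to 0.255, and lies below 0 in naive-high cells.

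Lists of other actin genes were read in the same way. Of 24 genes for crosslinking and contraction tested in keratin-high against naive-high cells, 15 were called higher and 0 lower, beside the 11.3% and 6.45% of all genes. Their median ratio was 2.79, 1.86, 3.78 and 2.07 in the 4 libraries. Tagln (ratios of 83.8 to 916), Cnn1 (21.5 to 137), Cald1 (19.97 to 66.1) and Tpm1 (6.24 to 17.9) had the largest smallest ratio, all of them regulators of contractile filaments. In naive-low formative-high cells 5 of 22 were called higher, beside 8.50% of all genes, namely Myh10, Tpm2, Tpm4, Cald1 and Tagln.

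Of 15 cell-matrix adhesion genes tested, 8 were called higher and 1 lower in keratin-high cells, beside 11.3% and 6.45% of all genes, with a median ratio of 2.54, 1.73, 2.62 and 1.77. They were led by Csrp1 (6.06 to 22.4), Pdlim7 (4.38 to 11.2), the integrin-linked kinase gene Ilk (3.72 to 7.42) and the fibronectin receptor subunit Itga5 (3.45 to 4.94). Tns3, a tensin, was called lower (0.331 to 0.430). In naive-low formative-high cells Itgb1, Ilk, Bcar1 and Pdlim7 were called higher and Tns3 lower, 4 and 1 of 15 tested, beside 8.50% and 6.59% of all genes.

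Genes that nucleate, elongate, sever or cap filaments form a pair of further lists, in which the shares called in keratin-high cells were near those of all genes. They were 9.09% higher and 4.55% lower for nucleation and elongation and 13.3% and 6.67% for monomer binding, severing and capping, beside 11.3% and 6.45%. Of 22 nucleation and elongation genes, the Arp2/3 subunits Arpc5 (2.36 to 4.61) and Actr3 (1.52 to 2.47) were called higher in keratin-high cells and Enah, a filament elongator, lower (0.405 to 0.518). Arpc2 had ratios of 1.46 to 2.39 and was not called. Enah was called lower in naive-low formative-high cells too (0.423 to 0.566), and Wasf1 was called higher there, each 1 of 22 (4.55%) beside 6.59% and 8.50% of all genes. Of 15 genes for monomer binding, severing and capping, Cap1 (1.59 to 2.06) and the cofilin phosphatase gene Ssh2 (1.74 to 2.65) were called higher and Twf2, a twinfilin, lower (0.383 to 0.411) in keratin-high cells. Wdr1 had ratios of 1.47 to 3.20 and was not called. Tmsb4x, the gene most like Actb, was called lower in naive-low formative-high cells (0.200 to 0.448), along with Twf2 and Limk2, and Ssh2 was called higher, 3 and 1 of 15 beside 6.59% and 8.50% of all genes.

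Some close relatives of the set's own genes were called higher in keratin-high cells. Among them were Lpp (4.85 to 21.0) and Trip6 (1.68 to 2.398), which belong to the zyxin family, Pfn2 (2.05 to 2.35) and Dstn (1.59 to 2.37). Dstn thus passed 1.5-fold in each library where its relative Cfl1 stayed within 1.23-fold.

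Actb is widely used to normalise measurements, so 9 other reference genes with enough counts were set beside it. None was called in keratin-high against naive-high cells, beside the same 11.3% and 6.45% of all genes, and their median ratio was 0.942, 0.992, 0.904 and 0.980. Ppia (0.882 to 0.914), Sdha (0.749 to 0.905) and Gapdh (0.942 to 0.992) were below 1, while Ywhaz (1.44 to 1.71) and Gusb (1.21 to 2.17) were above. In naive-low formative-high cells Gusb was called higher, at 1.79 to 2.93, which is 1 of 9 (11.1%) and close to the 8.50% of all genes. Between libraries 3 of these 9 genes spread at least 1.5-fold, beside 41.0% of all genes. Their median spread was 1.26-fold, near the 1.25-fold of Actb. Gapdh spread 1.65-fold, Ywhaz 1.67-fold and Gusb 1.99-fold, whereas Tbp spread 1.02-fold. Hprt was at 0.230 to 0.365 CPM and was not tested, and E14TG2a derivatives are known to lack a working Hprt gene.

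None of 14 S genes and none of 14 G2/M genes was called in either comparison, beside 11.3% of all genes called higher and 6.45% lower in keratin-high cells and 8.50% and 6.59% in naive-low formative-high cells. Their median ratios in keratin-high cells were 0.692 to 0.929 and 0.770 to 0.958, the lowest in library 3 for both. Hells (0.521 to 0.829), Mcm6 (0.604 to 0.832), Mcm3 (0.557 to 0.875) and Ccne1 (0.561 to 0.882) of the S genes, and Top2a (0.592 to 0.735), Ube2c (0.670 to 0.807), Ccnb1 (0.628 to 0.807) and Bub1 (0.636 to 0.887) of the G2/M genes, were below 1 in every library, whereas the S gene Gins2 (1.13 to 1.48) was above 1 in each. Of the marker genes that defined the classes, the largest ratios were in Krt8 (88.8 to 295) and Krt18 (42.7 to 230), given here as a description since they set the class. The naive genes are likewise only described, since their UMIs define the naive-high class. Of the 10 naive genes 9 were lower by the same rule in keratin-high cells, beside 6.45% of all genes. There Prdm14, Klf4, Zfp42 and Nr5a2 were at 0.0740 to 0.208 times their naive-high level, and Klf5 (0.744 to 0.970) was not called. Of 6 formative genes tested Pou3f1 (4.95 to 40.8) and Sox3 (2.43 to 7.36) were called higher there, beside 11.3% of all genes. Otx2 had ratios of 0.722, 1.33, 0.460 and 0.709, and the formative panel's median ratio was 2.21, 2.45, 0.916 and 1.63.

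The barcodes removed by the cell filter held different proportions of these transcripts. Pfn1 was at 0.368 to 0.553 times and Cfl1 at 0.460 to 0.633 times their level in kept cells, and Zyx at 0.487 to 0.535 times. Flna was higher in the removed barcodes of every library, at 1.14 to 1.39 times. Within the kept cells, cells of the highest quartile by UMI count had 1.09 to 1.25 times the Actb level and 1.33 to 2.57 times the Zyx level of cells in the lowest quartile.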

How the data were processed

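The study profiled mESC by 10x Genomics 3′ v3 single-cell RNA-seq. The authors mapped the 4 libraries to mm10 and joined them with Cell Ranger 6.1.2 (version per the submitters' processing notes). Its aggregation step by default evens out read depth. The deposited file holds UMI counts per gene and barcode. The study's stated filter was applied here per library: UMIs and genes at or above the mean minus 1 SD, and at most 10% mitochondrial UMIs. It kept 31989 of 41142 barcodes, which is not the cell number that the study states. A count of 0 allows up to 3 counts, or 0.0150 to 0.0180 CPM over a library.

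The members and lists were chosen with earlier results of these data known. Libraries could not be assigned to WT or Srrm2 hKO, so no test was made. UMIs were summed per library and marker class, leaving out classes with under 50 cells in a library. A gene was called between classes if every library compared showed a CPM ratio of 1.5 or more, all one way. At least 200 counts were needed in each library, over both classes together. A gene scarce in one class can therefore pass through the other. Named genes were all members, up to 4 genes per list with the largest change by its smallest value over libraries, genes deciding counts of 5 or fewer, and the 10 genes most like Actb. Other genes with ratios given, such as those just short of a call, Gapdh, Tbp, Hprt, Odc1 and Mdk, were chosen after their values were seen. No doublet caller was used, and an alternative left out the 1615 cells over 2 times their library's median UMI count. Intervals are exact at the 95% level. Alternatives covered scaling, cell filters, class thresholds, depth, weighting of cells and Leiden clusters (leidenalg 0.10.2, 2000 variable genes without the actin genes, 20 components, 20 neighbours, resolution 0.5, values scaled within a library), classed by the same thresholds on cluster means. Some results of the gene lists are not reported here. The code for calls and intervals was run on simulated Poisson and binomial counts, without further variation between cells or libraries. This checks the code and not how well the calls hold in these data. Python 3.11.15, numpy 2.4.6, scipy 1.17.1 and pandas 2.3.3 were used.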

Additional observations from a re-analysis of the deposited data

How the results depend on the processing

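The number of genes with a 1.5-fold spread between libraries was 4 under all 6 alternatives (other scalings, all barcodes, per-cell means, no high-UMI cells, another total), for the same 4 genes. Median-of-ratios and TMM scaling raised library 1 by 0.13 and 0.11 on the log2 scale relative to UMI totals. In keratin-high against naive-high cells 7 genes instead of 4 were called with the class begun at 4 keratin UMIs, and 7 at 10000 UMIs per cell, both with library 2 left out for too few cells and with 15.4% and 14.6% of all genes called higher. With Leiden clusters 6 were called (13.9% of all genes), with per-cell means 5 (11.2%), and over libraries 3 and 4 alone, an alternative chosen after seeing the data, 5 (15.9%). No ratio of any of the 8 genes turned direction in this comparison, and 4 of 176 moved by over 1.5 times, all under Leiden clusters: Vcl to 2.95, Tln1 to 2.63 and Zyx to 23.0 in library 2, and Tln1 to 3.09 in library 4. In naive-low formative-high cells 2 genes, Actg1 and Zyx, were called under all 5 alternatives. The Leiden comparison there left out library 4, which had 8 cells in the cluster of that class. Another 3102 cells of library 4 lay in a cluster classed as other. Its mean of 2.52 naive UMIs was just above the limit of 2, with a mean of 6.73 formative UMIs. Of 152 ratios, 4 crossed 1, all for Actb in library 1 or Tln1 in library 4. The Actb share in libraries 2, 3 and 4 was 80.6%, 62.2% and 67.8% over all barcodes. Without high-UMI cells it was 77.6%, 80.6%, 63.4% and 67.9% in libraries 1 to 4. Of the 10 genes most like Actb, 6 remained without keratin-high cells and 10 without the log. The cause of these shifts was not tested. No paired analysis was possible because no library number could be tied to a sample. Counting error limits Zyx most, with 1173 UMIs in library 1.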
